A study of Homo sapiens with 24 samples.

Results

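The middle part of the human 16S mt-rRNA, the large ribosomal RNA made from mitochondrial DNA, was followed position by position. Its members are nucleotides 901 to 1250 of the transcript of MT-RNR2, which lie on the plus strand of the mitochondrial chromosome of GRCh38 at chrM:2571-2920. They were chosen by position alone and come to 350 of the 1559 positions of this gene and of the 15416 positions of 37 mitochondrial transcripts in the table. All of them are exonic, since the gene is a single exon with no coding part. Positions are named here by their base and their coordinate on the mitochondrial chromosome, as in G2815 for a guanosine.

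The cells were HEK293T Flp-In T-REx, a human embryonic kidney line with a site for inserting transgenes. Knock-out (KO) lines of MRM1, MRM2 or MRM3 in this background were compared with the parental line, with 3 replicates of each of the 4 lines. Each replicate was RNA of the mitochondria-enriched fraction of a separate culture plate, and the p-values therefore cover plate-to-plate spread within 1 line, not independent knock-outs. The MRM2 KO was a clonal line made with zinc finger nucleases and kept in medium with more serum and uridine, and the MRM1 and MRM3 KO lines came from other people. Line, origin and medium therefore cannot be told apart. The RNA was broken in alkali and each ligated sample was split into a pool reverse transcribed at 2 µM dNTPs and a pool at 500 µM dNTPs, which gave 24 libraries. The lines were taken from the sample titles, which the headings of the table follow. In 18 samples the genotype field of the labels names another line.

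The 2 µM libraries held 483960 to 4048537 reads and the 500 µM libraries 162673 to 807322 reads, and the shallowest library of each level was an MRM2 KO. Coverage in the middle part ran between 448 and 112113 reads at 2 µM dNTPs and between 3512 and 44347 reads at 500 µM. The 16S mt-rRNA took 45.5 ± 0.456% of the reads in the MRM1 KO, 41.1 ± 1.81% in the MRM2 KO, 24.8 ± 1.17% in the MRM3 KO and 42.8 ± 0.610% in parental cells at 500 µM (SD, n = 3 each). The alignment used no chromosome other than the mitochondrial one, and nuclear copies of MT-RNR2 are close to identical, so any reads of such copies cannot be told apart from those of the rRNA. The MRM genes are nuclear, and their own loss cannot be read in these libraries.

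A pair of modified residues lies in this stretch. G2815 is in the P loop of the peptidyl transferase centre, the part of the large subunit that holds the end of the P-site tRNA, and is methylated on its ribose by MRM1. A2617 carries 1-methyladenosine (m1A), made by TRMT61B, a base methylation that blocks Watson-Crick pairing and halts reverse transcriptase. The targets of MRM2 and MRM3, U3039 and G3040 of the A loop, lie downstream of the stretch. A 2′-O-methyl group takes away the hydroxyl that alkali needs to break the chain, so few fragments end at such a residue, and it slows reverse transcriptase when dNTPs are scarce.

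The RNA sequences around the modified residues are printed below as read from GRCh38, 5′ to 3′ on the plus strand. The last is that around the pair of positions with the highest cleavage protection scores in parental cells. Capitals mark G2815, A2617, and A2706 with A2707, in that order.
chrM:2795-2835: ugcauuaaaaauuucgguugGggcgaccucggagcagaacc
chrM:2597-2637: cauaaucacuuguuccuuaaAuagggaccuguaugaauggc
chrM:2686-2727: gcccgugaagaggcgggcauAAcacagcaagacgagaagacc

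The cleavage protection score, score A, sets the 3′ ends of reads at a nucleotide against the flanking 6 nucleotides upstream and 6 downstream, in the 500 µM libraries. It nears 1 where almost no fragment ends, and the table sets negative scores to 0. The score before this truncation was recomputed from the end counts and can be negative. The flanks enter it as their mean less their SD, so a negative score does not by itself mean more ends than the flanking mean. For the stop ratio, 5′ ends found 1 nucleotide 3′ of the residue are divided by the coverage at that nucleotide, after adding 1 to each, and the ratio is given here in percent. Such a 5′ end can come from a halted reverse transcriptase or from a broken fragment. The RT-stop score is the stop ratio at 2 µM over that at 500 µM dNTPs in the same replicate.

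G2815 lost its protection without MRM1, and no difference was called there in the other knock-outs. At 500 µM dNTPs, 117, 119 and 61 reads ended at G2815 in the MRM1 KO, 13, 9 and 3 in the MRM2 KO, 7, 4 and 12 in the MRM3 KO, and 30, 33 and 20 in parental cells. Set against the flanking mean, this was 116, 102 and 120% in the MRM1 KO. It was 29.8, 22.0 and 10% in the MRM2 KO, 23.9, 16.3 and 19.6% in the MRM3 KO, and 16.6, 28.2 and 16.6% in parental cells. Without MRM1 the guanosine was thus cut about as often as its neighbours, while the other 3 lines overlapped one another. An edgeR quasi-likelihood test of the 3′ ends at G2815, with the flanking mean as offset, gave a log2 difference of 2.47 between the MRM1 KO and parental cells (Benjamini-Hochberg adjusted p = 6.46e-10).

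The score before truncation at G2815 was -0.252, -0.130 and -0.230 in the MRM1 KO, 0.390, 0.485 and 0.595 in the MRM2 KO, 0.448, 0.527 and 0.587 in the MRM3 KO, and 0.632, 0.418 and 0.578 in parental cells. All 3 MRM1 KO replicates were below 0 and all 9 others above it. In limma, the difference between the MRM1 KO and parental cells was -0.75 (standard error 0.067, adjusted p = 2.13e-05). With the score as deposited it was -0.54 (95% confidence interval -0.708 to -0.377, adjusted p = 0.00181), and it passed without any 1 replicate (adjusted p = 0.00278 to 0.0414). Once all libraries were thinned to the same number of 3′ ends, the deposited form of the score no longer passed at G2815 (-0.43, adjusted p = 0.427), while the score before truncation did (-0.65, adjusted p = 0.00498).

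**Figure D1:**
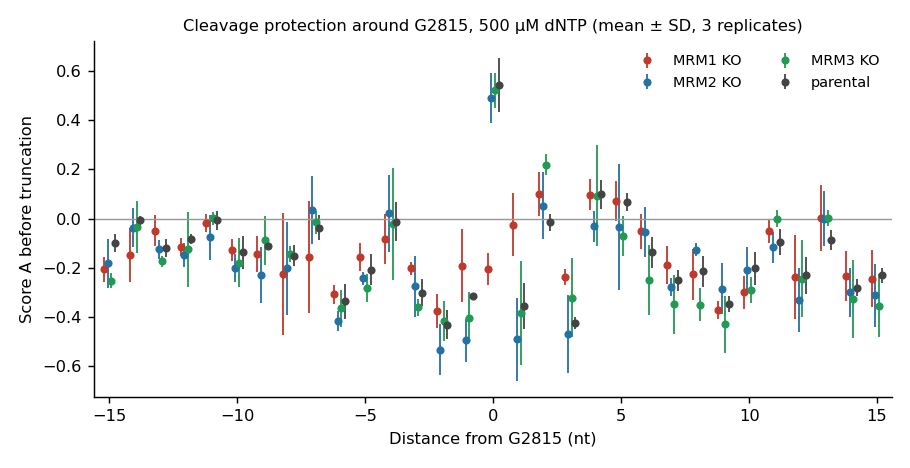
Score A before truncation at 500 µM dNTPs (vertical axis, no unit) by distance from G2815 in nucleotides, as mean ± SD of 3 replicates in each line. At G2815 itself the MRM1 KO mean is -0.204 and the other 3 lines lie at 0.490, 0.521 and 0.543.

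The stop ratio of G2815 changed in opposite directions at the 2 dNTP levels when MRM1 was missing. At 2 µM the stop ratio of G2815 was 0.361, 0.434 and 0.678% in the MRM1 KO, 7.68, 9.17 and 8.22% in the MRM2 KO, 7.57, 8.81 and 6.29% in the MRM3 KO, and 6.88, 4.35 and 6.48% in parental cells. At 500 µM it was 0.660, 0.628 and 0.603% in the MRM1 KO, 0.130, 0.194 and 0.131% in the MRM2 KO, 0.196, 0.236 and 0.195% in the MRM3 KO, and 0.181, 0.122 and 0.114% in parental cells. The MRM1 KO was thus lowest of the lines at 2 µM and highest at 500 µM, with no overlap in either. At 2 µM G2815 fell by 3.61 on the log2 scale in limma (standard error 0.278, adjusted p = 5.68e-05). At 500 µM it was higher by 2.21 (standard error 0.306, adjusted p = 0.0479), a call that was lost without any 1 replicate (adjusted p = 0.102 to 0.382). The same rise at 500 µM was called by edgeR on the stop counts (2.19, adjusted p = 2.03e-14) and in each of the 6 fits without a replicate. At 500 µM these were 126, 145 and 69 reads in the MRM1 KO, against 58, 30 and 31 in parental cells. A break after G2815 leaves a 3′ end at G2815 and a 5′ end at G2816, and at 500 µM both counts were higher without MRM1.

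The RT-stop score of G2815 joins the pools. It was 0.546, 0.692 and 1.13 in the MRM1 KO, 59.2, 47.3 and 62.9 in the MRM2 KO, 38.7, 37.3 and 32.3 in the MRM3 KO, and 38.1, 35.7 and 56.9 in parental cells. The log2 difference between the MRM1 KO and parental cells was -5.82 in limma (standard error 0.354, 95% confidence interval -6.59 to -5.06, adjusted p = 6.89e-06). Without MRM2 the same difference at G2815 came to 0.40, within limits of -0.369 and 1.16 at 95% confidence, and without MRM3 it was -0.24 (95% confidence interval -1.01 to 0.524), neither past the threshold. At 2 µM alone, the 3 MRM2 KO values lay above the 3 parental ones, higher by 0.53 on the log2 scale (95% confidence limits -0.0716 and 1.12), which limma did not call (adjusted p = 0.259). For the stop ratio at 500 µM alone, the 3 MRM3 KO values lay above the 3 parental ones, at 150% of the parental mean. The exact permutation test gave p = 0.1, its smallest possible, and neither limma nor edgeR called it.

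**Figure D2:**
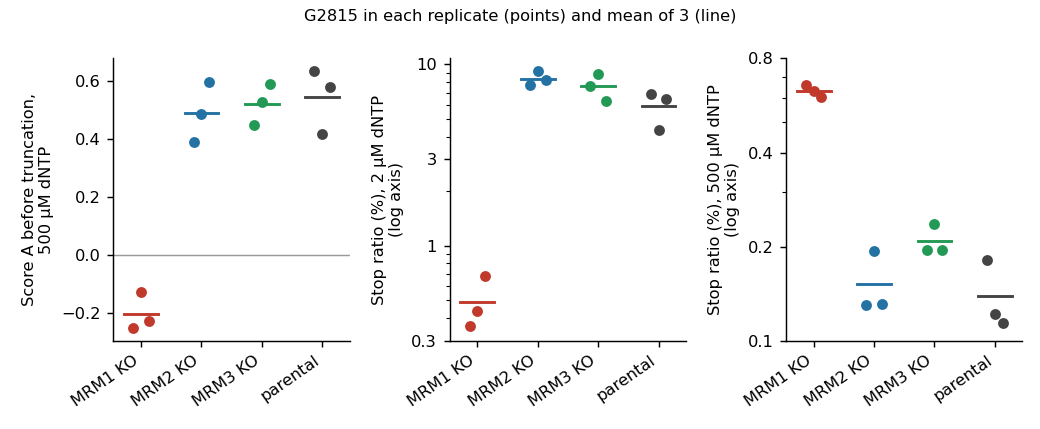
G2815 in each replicate (points) with the mean of 3 (line) for the MRM1 KO, MRM2 KO, MRM3 KO and parental lines: score A before truncation, stop ratio at 2 µM dNTPs and stop ratio at 500 µM dNTPs, both ratios in percent on log axes. The MRM1 KO lies apart from the other lines in each panel, below them in the first and second and above them in the third.

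Across the whole table, few positions passed in the MRM1 comparison, and G2815 was the 1 position of the stretch to do so in either score. Of the 641 positions testable in cleavage protection, 97 lie in the stretch, and 0.156% of all were called. Of the 2196 positions tested before truncation, all 350 of the stretch among them, 0.0455% were called, and the edgeR test of 3′ ends also called 0.0455%. In RT-stop score, limma called 0.00835% of 11971 positions. In the stretch, 3, 10 and 16 positions had an unadjusted p under 0.05 in the score, in the score before truncation and in the RT-stop score. The other 2 knock-outs had no call in the stretch in either score. Without MRM2, limma called 0.156% of all positions in cleavage protection and 0% in RT-stop score, and 14 and 40 positions of the stretch had an unadjusted p under 0.05. Without MRM3 it called 0.312% and 0.00835%, and 4 and 8 positions of the stretch were under 0.05. Over all positions, the median of the log2 differences from parental cells in RT-stop score was 0.0859 without MRM1. It was 0.288 without MRM2 and 0.0986 without MRM3. Subtracting each replicate's median left the difference at G2815 without MRM1 at -5.93.

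The guanosine just before the methylated one moved with it at low dNTPs. The stop ratio of G2814 at 2 µM was 0.170, 0.190 and 0.183% in the MRM1 KO, 1.3, 1.35 and 1.15% in the MRM2 KO, 1.15, 1.22 and 1.16% in the MRM3 KO, and 1.13, 0.781 and 0.913% in parental cells. The MRM1 KO values did not overlap those of any other line. For G2814 limma gave a log2 difference of -2.36 (adjusted p = 0.0153), which was lost without any 1 replicate (adjusted p = 0.0722 to 0.142), and edgeR gave -2.42 (adjusted p = 6.98e-14) and kept the call in all 6 such fits. At 500 µM G2814 had 0.800 ± 0.051% in the MRM1 KO and 1.06 ± 0.16% in parental cells (SD, n = 3), which was not called. Reads stopping for G2814 have their 5′ end on G2815.

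On the other side, G2816 was a strong stop at 2 µM in all lines. Its stop ratio was 9.70 ± 1.1% in the MRM1 KO, 15.5 ± 1.7% in the MRM2 KO, 15.3 ± 3.3% in the MRM3 KO and 10.4 ± 2.4% in parental cells (SD, n = 3 each). edgeR on the 2 µM stops called G2816 higher in the MRM2 KO (log2 0.57, adjusted p = 0.0131) and in the MRM3 KO (0.55, adjusted p = 0.0182). Both comparisons use the same parental libraries, and limma called neither. The score before truncation of G2816 was -0.025 ± 0.13 in the MRM1 KO, -0.490 ± 0.17 in the MRM2 KO, -0.384 ± 0.21 in the MRM3 KO and -0.356 ± 0.093 in parental cells. G2815 is one of the 12 flanking positions used for that score, and the difference without MRM1 was not called.

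Over the 12 positions around G2815, the median score before truncation was -0.120 in the MRM1 KO, -0.259 in the MRM2 KO, -0.301 in the MRM3 KO and -0.255 in parental cells. The lowest of the 12 was U2813 in every line, between -0.533 and -0.376. With the edgeR test of the dNTP effect, U2813 was called lower in the MRM1 KO (log2 -1.41, adjusted p = 0.0238), with stop ratios of 0.170 ± 0.050% at 2 µM and 0.433 ± 0.036% at 500 µM in the MRM1 KO, against 0.322 ± 0.059% and 0.3 ± 0.073% in parental cells.

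Low dNTPs changed where reads stopped along the whole stretch, in all 4 lines. After subtracting each replicate's median over all positions, limma called the RT-stop score raised at 103 positions of the 350 in the MRM1 KO, 111 in the MRM2 KO, 117 in the MRM3 KO and 110 in parental cells. These are 29.4, 31.7, 33.4 and 31.4% of the stretch, beside 28.2, 27, 28.7 and 30.1% of all 11971 positions, so the shares are close to the background. The score was called lowered at 151, 144, 136 and 142 positions. These are 43.1, 41.1, 38.9 and 40.6% of the stretch, beside 25.5, 23.4, 25.6 and 27.1% of all positions. Only 5966 of the 11971 positions, but all 350 of the stretch, passed a filter of at least 200 reads of coverage. With that filter, parental calls in both directions together were 271 in the stretch (77.4%) and 3925 of the 5966. Without it they were 252 (72%) and 6848 of the 11971. The background thus includes positions of lower coverage than the stretch, and the part of coverage in these comparisons was not tested.

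The direction followed the base. In parental cells 72 of the 113 adenosines were raised at 2 µM and 14 lowered, while 11 of the 90 cytidines were raised and 59 lowered. Of the 70 guanosines 16 were raised and 30 lowered, and of the 77 uridines 11 were raised and 39 lowered. The knock-outs gave the same picture, with 70 to 75 adenosines raised and 58 to 61 cytidines lowered. The median RT-stop score in parental cells was 2.33 ± 0.46 over adenosines, 0.292 ± 0.0051 over cytidines, 0.701 ± 0.066 over guanosines and 0.446 ± 0.051 over uridines (SD, n = 3). The bases differed mainly at 2 µM, where the median stop ratio was 1.47% over adenosines and 0.194% over cytidines. At 500 µM the medians were 0.611% and 0.748%. Adenosines followed by another adenosine did not stand above the rest: in parental cells the 40 of them had a median stop ratio at 2 µM of 1.12 ± 0.064%, against 1.71 ± 0.18% for the other 73.

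A few positions took a large part of the stops. At 2 µM the mean stop ratio exceeded 10% at 15 positions in the MRM1 KO, 19 in the MRM2 KO, 15 in the MRM3 KO and 16 in parental cells, of which 13, 15, 12 and 13 were adenosines. At 500 µM only A2617 did so, in each line. The highest at 2 µM in parental cells, picked after the values were seen, were A2805 with 59.8 ± 6.0%, A2619 with 49.8 ± 6.8%, A2804 with 42.6 ± 3.0%, A2629 with 38.6 ± 1.2% and C2624 with 27.2 ± 2.1% (SD, n = 3). A2804 and A2805 end the run of adenosines upstream of G2815, and A2619, C2624 and A2629 follow A2617. At 500 µM A2805 had 2.42 ± 0.36%, A2804 0.685 ± 0.12% and A2619 2.34 ± 0.45%. By RT-stop score the highest in parental cells were A2804 with 63.0 ± 7.8, G2796 with 54.0 ± 28, G2815 with 43.5 ± 12, C2624 with 42.2 ± 14 and A2623 with 41.5 ± 7.3. Apart from G2815, these scores were also high without MRM1, where A2804 had 83.4 ± 3.0, C2624 43.8 ± 11 and A2623 55.4 ± 18. G2796 rests on few stops at 500 µM and was uneven, with 39.3, 43.5 and 6.44 in the MRM1 KO and 37.0, 39.3 and 85.8 in parental cells. At the other end were cytidines such as C2588 with 0.0259 ± 0.0013 and C2684 with 0.0278 ± 0.0086 in parental cells, both picked after their values were seen.

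Coverage was uneven along the stretch, more so at 2 µM. As a share of each library's mean over the 16S mt-rRNA, parental coverage at 2 µM was lowest at 2800, with 10.5 ± 1.2%, and highest at 2654, with 196 ± 15%. At 500 µM it was lowest at A2617, with 58.1 ± 3.1%, and highest at 2920, with 156 ± 5.2% (SD, n = 3). From 2771 to 2820, the window that holds G2815, coverage at 2 µM was 43.6 ± 7.0% of the 16S mean in the MRM1 KO, 32.4 ± 2.0% in the MRM2 KO, 34.0 ± 1.9% in the MRM3 KO and 35.1 ± 2.7% in parental cells, and at 500 µM it was 107 ± 2.8%, 105 ± 4.2%, 102 ± 8.0% and 108 ± 1.4%. At 2 µM this was the thinnest of the windows compared in every line but the MRM1 KO, where the window before it had 34.1 ± 5.7%.

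**Figure D3:**
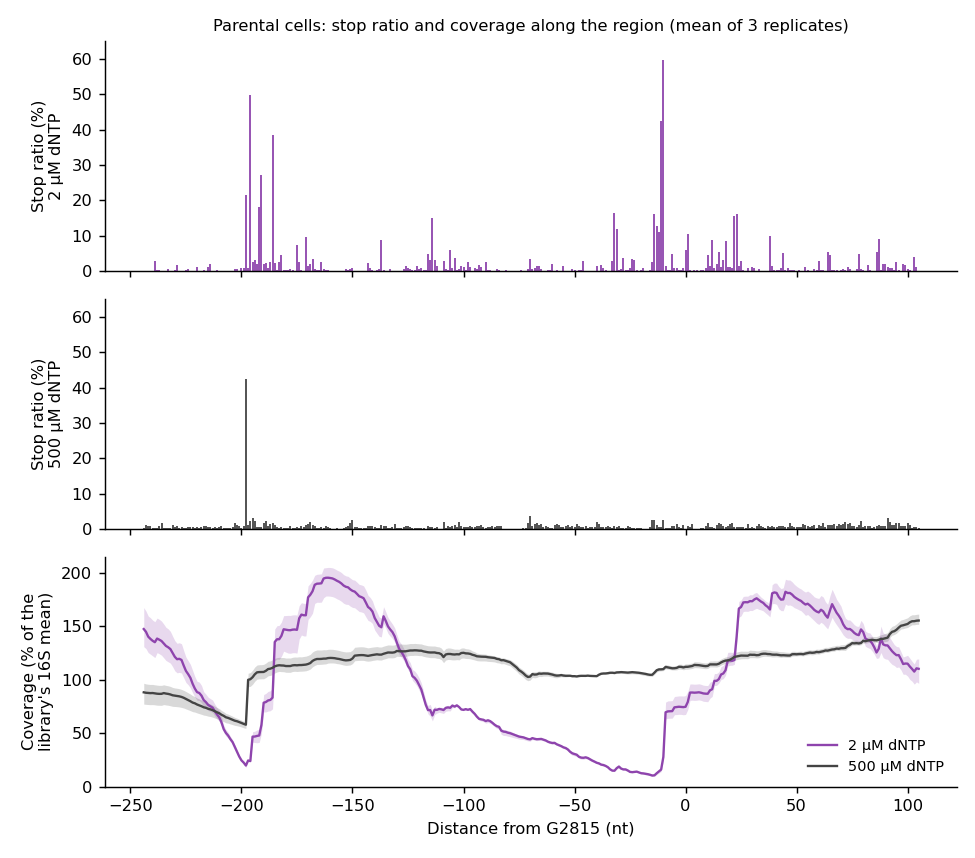
Parental cells along the stretch, by distance from G2815 in nucleotides (mean of 3 replicates): stop ratio in percent at 2 µM dNTPs, stop ratio in percent at 500 µM, and coverage as percent of the library's 16S mean. Shading on the coverage spans the lowest to the highest replicate. At 500 µM the single tall bar is A2617, at 42.4%, whereas at 2 µM several bars exceed it or come near and coverage is as low as 10.5% upstream of G2815.

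The stretch held 21.9 ± 1.31% of the 16S coverage at 2 µM and 24.9 ± 1.31% at 500 µM (SD, n = 12 each). It was lower at 2 µM in 12 of 12 pairs of pools, by -3.04 percentage points on average (exact permutation test over pairs, two-sided, p = 0.000488281). For 5′ ends the difference was -8.43 points, in 12 of 12 pairs with the same p. For 3′ ends it was -1.49 points, in 9 of 12 pairs (exact permutation test, two-sided, p = 0.00683594). Between lines the share at 500 µM was 24.6 ± 0.860% in the MRM1 KO, 24.4 ± 1.40% in the MRM2 KO, 25.1 ± 2.29% in the MRM3 KO and 25.5 ± 0.457% in parental cells. None differed from parental cells in the exact permutation test (two-sided, p = 0.3, 0.3 and 0.8), whose smallest p for 3 against 3 is 0.1, so this test cannot pass the threshold. At 2 µM the share was 22.2 ± 1.80% in the MRM1 KO, 21.2 ± 0.773% in the MRM2 KO, 21.1 ± 1.04% in the MRM3 KO and 23.0 ± 0.891% in parental cells (exact permutation test, p = 0.4, 0.1 and 0.1), and the MRM2 and MRM3 KO values lay below the parental ones without overlap. For 5′ ends at 500 µM the MRM3 KO was also below parental cells without overlap, by -2.01 points (exact permutation test, p = 0.1). These shares are taken within the 16S mt-rRNA, so they do not measure its amount per cell.

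A2617, the m1A residue, was the strongest stop at 500 µM. Its stop ratio was 51.0, 44.4 and 38.9% in the MRM1 KO, 42.4, 48.6 and 46.6% in the MRM2 KO, 27.3, 27.6 and 21.7% in the MRM3 KO, and 44.5, 36.5 and 46.1% in parental cells. The MRM3 KO was below the other 3 lines without overlap, at 60.2% of the parental mean. At 2 µM the ratio at A2617 was 14.3, 18.0 and 10.5% in the MRM1 KO, 16.8, 17.7 and 11.1% in the MRM2 KO, 9.59, 11.5 and 11.5% in the MRM3 KO, and 27.9, 19.3 and 17.6% in parental cells. The mean stop ratio there was lower at 2 µM than at 500 µM in every line, the reverse of G2815 in all lines but the MRM1 KO, and the RT-stop score at A2617 was 0.319 ± 0.076 in the MRM1 KO, 0.333 ± 0.083 in the MRM2 KO, 0.432 ± 0.090 in the MRM3 KO and 0.512 ± 0.12 in parental cells (SD, n = 3 each). A2619, the strong 2 µM stop 3′ of it, is met by the reverse transcriptase first. Reads that stop at A2619 are not in the coverage that the ratio at A2617 is divided by. Any part of A2619 in the lower 2 µM ratio was not tested.

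The lower stop ratio at A2617 without MRM3 depended on the test. edgeR on the stop counts called it at 500 µM (log2 -0.73, adjusted p = 3.39e-10) and at 2 µM (-1.0, adjusted p = 1.45e-05), and kept both calls without any 1 replicate (adjusted p up to 4.86e-07 and 0.00459). limma gave the same differences, -0.73 at 500 µM (standard error 0.124, 95% confidence interval -1.0 to -0.463) and -0.97 at 2 µM (standard error 0.232, 95% confidence interval -1.47 to -0.471), but called neither (adjusted p = 0.105 and 0.284). The exact permutation test gave p = 0.1, the smallest possible. The RT-stop score at A2617 had a log2 difference of -0.24 without MRM3 (adjusted p = 0.957 in limma). It was -0.68 without MRM1 and -0.62 without MRM2, where limma called neither (adjusted p = 0.731 and 0.515) and edgeR called both (adjusted p = 0.0151 and 0.0210), although the replicates overlapped. At 2 µM edgeR also called A2617 lower without MRM1 (log2 -0.59, adjusted p = 0.0464), again with overlap. U2618, next to it, had 0.339 ± 0.13% at 2 µM in the MRM3 KO and 0.898 ± 0.14% in parental cells, and edgeR called that as well (log2 -1.41, adjusted p = 0.0110). Coverage at A2617 was 87.3 ± 14% of the 16S mean at 500 µM in the MRM3 KO and 58.1 ± 3.1% in parental cells. The 16S mt-rRNA also took the smallest share of reads in the MRM3 KO, given above, and the part of this in the stop ratio was not tested.

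**Figure D4:**
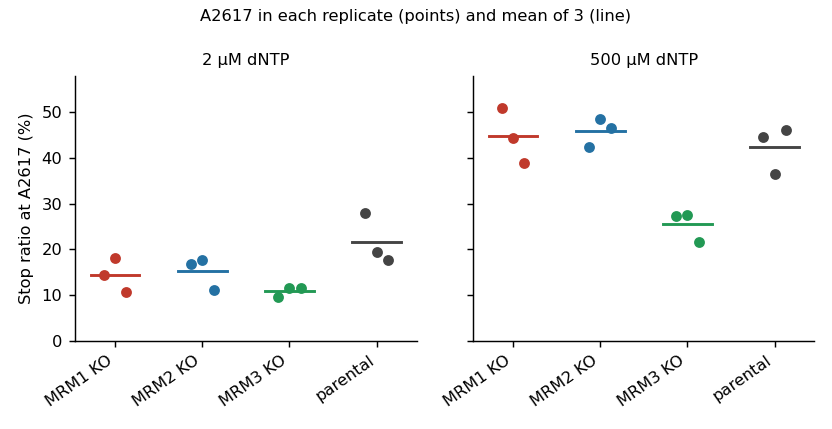
Stop ratio of A2617 in percent in each replicate (points) with the mean of 3 (line), at 2 µM dNTPs and at 500 µM dNTPs, for the MRM1 KO, MRM2 KO, MRM3 KO and parental lines. At 500 µM the MRM3 KO values, 21.7 to 27.6%, lie below those of all other lines.

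In cleavage, the 3′ ends at A2617 came to 66.5 ± 4.7% of the flanking mean in the MRM1 KO, 94.2 ± 9.7% in the MRM2 KO, 89.3 ± 9.5% in the MRM3 KO and 63.2 ± 11% in parental cells. The MRM2 and MRM3 KO values lay above the parental ones without overlap, at 149% and 141% of the parental mean, and edgeR called neither (adjusted p = 0.0869 and 0.294). The score before truncation at A2617 was 0.107 ± 0.027, -0.107 ± 0.076, -0.054 ± 0.086 and 0.131 ± 0.075 in the same lines. The difference of -0.24 without MRM2 was not called (adjusted p = 0.0956 in limma), nor was that of -0.18 without MRM3 (adjusted p = 0.620).

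The stop ratios taken alone, at either dNTP level, gave these counts in the stretch. Without MRM1, limma called G2815 at 500 µM and G2814 and G2815 at 2 µM, where 0.0167% and 0.0251% of all positions were called. The edgeR tests without MRM1 called 1 position of the stretch at 500 µM, 12 at 2 µM and 9 for the dNTP effect, where they called 0.0334%, 1.19% and 0.184% of all positions. Without MRM3, limma called none of the 350 at 500 µM, where it called 0% of all and 10 of the stretch had an unadjusted p under 0.05, and none at 2 µM, where it called 0.00835% and 28 were under 0.05. The edgeR tests without MRM3 called 2, 11 and 0 of the stretch, and 0.117%, 0.986% and 0.184% of all positions. For the dNTP effect, 21 positions of the stretch had an unadjusted p under 0.05. Among the 5 largest non-overlapping 2 µM calls by edgeR in the stretch, those of A2617 and A2591 held in all 6 fits without a replicate. The stop ratio of A2591 at 2 µM was 1.53, 1.39 and 1.05% in the MRM3 KO, against 0.622, 0.480 and 0.708% in parental cells (log2 1.10, adjusted p = 4.53e-04).

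A short group of adenosines, A2782, A2783 and A2784, with C2779 before it, had a larger dNTP effect by edgeR in the MRM1 and MRM2 KO lines. At 2 µM the stop ratio of A2783 was 25.8, 31.6 and 26.1% in the MRM1 KO, 21.2, 27.2 and 24.5% in the MRM2 KO, 19.9, 16.4 and 16.5% in the MRM3 KO, and 14.5, 14.7 and 20.1% in parental cells. The MRM1 and MRM2 KO values lay above the parental ones and those of the MRM3 KO overlapped them. edgeR on the dNTP effect called A2783 in the MRM1 KO (log2 1.23, adjusted p = 5.69e-04) and in the MRM2 KO (0.99, adjusted p = 0.0124). A2782 was called too (1.32, adjusted p = 0.0307 and 1.82, adjusted p = 0.00160), as were A2784 and C2779 in both. The comparisons share their parental libraries, and limma on the RT-stop score called none of these. A2784 was picked after its values were seen. C2779 rests on few stops at 2 µM, with 19, 25 and 3 reads in the MRM1 KO, 10, 7 and 4 in the MRM2 KO, and 18, 8 and 13 in parental cells.

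In the MRM2 KO, fragments broke more often at A2717 and G2721. The 3′ ends at A2717 came to 180, 259 and 249% of the flanking mean in the MRM2 KO, against 85.2, 91.8 and 95% in parental cells. At G2721 they came to 265, 271 and 324% in the MRM2 KO, against 109, 117 and 96.3% in parental cells. The other knock-outs stayed near the parental level, with 91.0 ± 17% and 123 ± 18% in the MRM1 KO and 97.6 ± 5.8% and 110 ± 8.3% in the MRM3 KO. These values rest on 173 to 302 reads at A2717 and 219 to 300 reads at G2721 in each MRM2 KO library. The score before truncation at A2717 was -0.591 ± 0.098 in the MRM2 KO and -0.077 ± 0.040 in parental cells, a difference of -0.51 (standard error 0.062, adjusted p = 2.52e-04 in limma). At G2721 it was -0.712 ± 0.063 and -0.192 ± 0.019, a difference of -0.52 (standard error 0.047, adjusted p = 1.25e-05). Both calls held without any 1 replicate and after thinning every library to the same total of 3′ ends, which does not equalise depth within the stretch. The deposited score is 0 at both positions in every MRM2 KO and parental library.

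The 5′ ends on the other side of the same bonds rose as well. At 500 µM the stop ratio of G2721 was 2.15, 2.20 and 3.16% in the MRM2 KO, against 0.762, 0.881 and 0.779% in parental cells (log2 1.61, adjusted p = 0.0178 in limma, and 1.63, adjusted p = 8.99e-18 in edgeR). That of A2717 was 1.33, 1.17 and 1.79% in the MRM2 KO, against 0.505, 0.720 and 0.521% in parental cells (log2 1.29, adjusted p = 0.0385 in limma, and 1.29, adjusted p = 1.74e-08 in edgeR). Leaving out 1 replicate kept the limma call of G2721 in 3 of 6 fits and that of A2717 in none, while edgeR kept both in all 6. At 2 µM the ratios of G2721 were 0.885 ± 0.36% in the MRM2 KO and 0.632 ± 0.12% in parental cells, and those of A2717 were 2.90 ± 0.47% and 2.60 ± 0.25%, and neither was called. With the rise at 500 µM alone, edgeR called the dNTP effect lower in the MRM2 KO at A2717 (log2 -1.12, adjusted p = 0.00206) and at G2721 (-1.23, adjusted p = 0.00378), which limma did not.

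U2731 also had more 3′ ends in the MRM2 KO, by the edgeR test alone. Its 3′ ends came to 264, 441 and 539% of the flanking mean in the MRM2 KO, against 175, 159 and 217% in parental cells (log2 1.16, adjusted p = 7.31e-05). Its score before truncation was among the lowest of the stretch in every line. The score was -0.531 ± 0.081 in the MRM1 KO, -0.715 ± 0.087 in the MRM2 KO, -0.441 ± 0.11 in the MRM3 KO and -0.486 ± 0.070 in parental cells. limma did not call U2731 (score before truncation -0.23, adjusted p = 0.105).

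**Figure D5:**
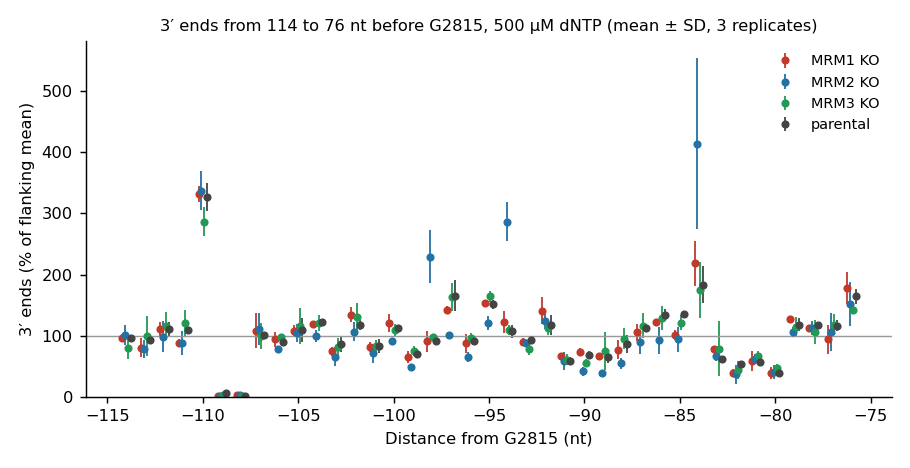
3′ ends at 500 µM dNTPs as percent of the flanking mean (mean ± SD of 3 replicates) by distance from G2815 in nucleotides, for the 4 lines, with a line at 100%. The MRM2 KO rises above the other lines at A2717 (229%), G2721 (287%) and U2731 (414%), and all lines drop to near 0 at A2706 and A2707.

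Beside these, limma called C2727 and U2630 in the MRM2 KO before truncation, for 4 calls in the stretch, where 0.683% of all positions were called and 60 of the stretch had an unadjusted p under 0.05. Both calls had an adjusted p of 0.0483 and held in 1 of 6 fits without a replicate. At C2727 the score and the ends differed in direction. The score fell by 0.35, while edgeR called the 3′ ends lower too (log2 -0.66, adjusted p = 0.0450). The flanking positions used for C2727 include G2721 and U2731, and their part in this was not tested. edgeR called 9 positions of the stretch in 3′ ends, 6 higher and 3 lower, where it called 1.5% of all, and in the MRM3 KO it called none of the stretch and 0.182% of all, with 20 of the stretch under an unadjusted p of 0.05. limma before truncation called none of the stretch without MRM3, 0.0911% of all, and 12 of the stretch were under 0.05.

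In the stop ratios, limma calls in the MRM2 KO depended on the filter. limma called 3.33% of all positions at 500 µM and 5.2% at 2 µM, and of the stretch 2 at 500 µM, A2717 and G2721, and 5 at 2 µM. With a coverage of at least 200 reads it called 36 of 5966 positions at 500 µM, A2717 and G2721 among them, and 0 at 2 µM. With 0.1 in place of 1 added to stops and coverage, it called 41 and 3 of 11971. edgeR without MRM2 called 20 of the stretch at 500 µM, 18 at 2 µM and 17 for the dNTP effect, where it called 1.89%, 1.33% and 1.03% of all. The shares of the stretch were thus below those of the table in limma and above them in edgeR, at 5.71%, 5.14% and 4.86%. The edgeR call of the dNTP effect with the largest fitted change was A2734, where 0 reads stopped in each MRM2 KO library at 500 µM, against 7, 11 and 5 in parental cells (adjusted p = 0.0282), so that no fold is given. Its stop ratios at 2 µM overlapped, and limma did not call its RT-stop score (adjusted p = 0.137). A2662 had RT-stop scores of 2.96, 2.5 and 3.63 in the MRM2 KO, against 0.832, 0.873 and 1.6 in parental cells (edgeR log2 1.52, adjusted p = 8.85e-05, and adjusted p = 0.184 in limma). The 5 limma calls at 2 µM were C2779, U2743 and A2783, which rose, and A2802 and A2804, which fell. A2802 had 7.43, 8.03 and 8.15% in the MRM2 KO, against 12, 13.1 and 12.9% in parental cells (log2 -0.69, adjusted p = 0.0384). U2743 had 0.662, 0.550 and 0.579%, against 0.172, 0.142 and 0.286% (log2 1.64, adjusted p = 0.0494). A2804 had 33.3 ± 2.8% in the MRM2 KO and 42.6 ± 3.0% in parental cells (log2 -0.36, adjusted p = 0.0494). None of the 5 held in more than 2 of the 6 fits without a replicate. Of the 5 largest non-overlapping calls by edgeR at 2 µM, that of G2652 was kept in all 6, with 1.25, 1.42 and 2.91% in the MRM2 KO, against 0.331, 0.426 and 1.15% in parental cells (log2 1.51, adjusted p = 1.40e-06). The difference at G2652 was 2.24 without parental replicate 3 and 1.08 without MRM2 KO replicate 3.

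The highest scores before truncation in the stretch were those of A2707 and A2706, ahead of G2815, in every line. Before truncation A2707 scored 0.892 ± 0.066 in the MRM1 KO, 0.862 ± 0.043 in the MRM2 KO, 0.920 ± 0.069 in the MRM3 KO and 0.967 ± 0.012 in parental cells. A2706 scored 0.917 ± 0.058, 0.865 ± 0.11, 0.824 ± 0.029 and 0.739 ± 0.094 in the same lines. Between 0 and 5 reads ended at A2707 in any library. At A2706 it was 0 to 4 in the knock-out libraries and 13 to 18 in parental cells. The parental libraries were deeper, but not always by much. Median coverage in the stretch was 25530 reads in parental replicate 2 and 24901 in MRM1 KO replicate 2. The part of depth in this was not tested. The stop ratio of A2706 at 2 µM was 2.33 ± 0.32% in the MRM1 KO, 2.13 ± 0.25% in the MRM2 KO, 3.06 ± 0.60% in the MRM3 KO and 2.76 ± 0.19% in parental cells. At 500 µM it was 2.03 ± 0.13% in parental cells, so the RT-stop score of A2706 there was 1.37 ± 0.17 and that of A2707 1.59 ± 0.31. The RT-stop scores of this pair were thus slightly above 1, far below that of G2815. At 500 µM the parental stop ratio of A2706 was above the median over adenosines, 0.611%, although few 3′ ends lay at A2706. These counts come from aligned reads, and the cause of the missing 3′ ends was not tested.

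Just upstream lay the positions with the lowest scores before truncation. A2706 and A2707 are among the flanking positions used for these scores, and their part in them was not tested. U2705 scored -0.715 ± 0.023 in the MRM1 KO, -0.733 ± 0.043 in the MRM2 KO, -0.690 ± 0.019 in the MRM3 KO and -0.698 ± 0.021 in parental cells. C2703, A2704 and G2701 followed in parental cells with -0.518 ± 0.042, -0.495 ± 0.014 and -0.488 ± 0.045. Almost no read began right after U2705: 0 to 4 reads in any library at 500 µM, over a coverage of 6538 to 37034 reads. The stop ratio of U2705 was thus 0.0063 ± 0.0030% at 500 µM in parental cells. After A2704 it was 0 to 1 reads.

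Cleavage varied along the whole stretch, with the 5th and 95th percentiles of parental scores before truncation at -0.391 and 0.127. The score before truncation was above 0 in all replicates at 28 positions in the MRM1 KO, 19 in the MRM2 KO, 26 in the MRM3 KO and 41 in parental cells, and below 0 in all at 244, 239, 238 and 251. The median SD between replicates was 0.064, 0.083, 0.078 and 0.040 in the same lines, larger in the shallower knock-out libraries. Above 0.5 lay 2 positions in the MRM1 KO and in the MRM2 KO and 3 in the MRM3 KO and in parental cells. Next after A2707, A2706 and G2815 in parental cells came G2622 with 0.344 ± 0.026 and G2735 with 0.294 ± 0.013. G2622 had 0.175 ± 0.089 in the MRM1 KO, 0.144 ± 0.11 in the MRM2 KO and 0.255 ± 0.095 in the MRM3 KO, and no difference was called there. By base, 3′ ends in parental cells had a median of 91.3% of the flanking mean over adenosines, 112% over cytidines, 74.7% over guanosines and 109% over uridines.

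Position by position the lines had much the same profile. Across the 350 positions, which are not independent replicates and share their flanks, Pearson's r with parental cells was 0.902 in the MRM1 KO, 0.853 in the MRM2 KO and 0.932 in the MRM3 KO for the score before truncation. Without G2815 it was 0.927, 0.847 and 0.929. For the log2 RT-stop score r was 0.963, 0.959 and 0.981, and without G2815 it was 0.972, 0.959 and 0.981. Leaving out G2815 thus raised r in the MRM1 KO by more than it moved r in the other lines. Other stops at 500 µM were small in all lines. After A2617 the highest in parental cells were A2745 with 3.64 ± 0.39%, C2906 with 3.11 ± 0.35%, G2620 with 3.05 ± 0.33% and U2665 with 2.67 ± 0.18%, and none of these was called different in a knock-out in limma.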

How the data were processed

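Mitochondria-enriched RNA of 4 HEK293T lines was profiled in 24 libraries. The authors aligned reads with STAR 2.5.3a to the mitochondrial chromosome of GRCh38.p13 (names and versions from the submitters' processing notes) and deposited whole-number counts of read starts, read ends and coverage at each position. From these the authors made the deposited score A and stop ratio, both fractions between 0 and 1. The column of read ends was taken as 5′ ends and that of read starts as 3′ ends, since only this reading recovered the coverage, at 15416 positions. All 36703 scores and 369096 stop ratios were recovered within 1e-12. Of the table's columns 108 were used, and 10 columns with the authors' own comparisons were not.

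Lines were compared with limma 3.58.1 (mean-variance trend, R 4.3.3) on all 12 replicates, with Benjamini-Hochberg adjustment over every position tested and a threshold of 0.05. Score A needed a flank median of at least 15 reads and a score above 0 in at least 3 libraries, and stop ratios a coverage of at least 50 reads. edgeR 4.0.16 quasi-likelihood tests of the end and stop counts, with flanking ends or coverage as offset, were alternatives, as were other filters, flanks, scales, thinning and leaving out each replicate. Single values were compared with exact permutation tests (scipy 1.17.1). No replicate pair of the 24 compared agreed within sampling noise (lowest chi-square per degree of freedom 1.33). Reads carry no molecular identifiers, so precision from read numbers covers counting error only. The limma and edgeR fits were tried on simulated data. The truncated score was not simulated, so its test was not checked in this way. The stretch was chosen by position, but it, the lists and the tests were chosen with earlier results of these data known. Positions named were drawn from A2617 and G2815 with 6 neighbours on each side, up to 5 of the largest non-overlapping calls per measure and knock-out, and the 5 most extreme parental positions in each score; others are said to be picked after their values were seen. Sequences and the gene's coordinates come from the GRCh38 genome and annotation.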

Additional observations from a re-analysis of the deposited data

Results flagged for a closer look

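The effect of low dNTPs at G2815 differed between lines. The log2 RT-stop score there was lower in the MRM1 KO than in parental cells by -5.82 (limma, adjusted p = 6.89e-06), with RT-stop scores of 0.546, 0.692 and 1.13 in the MRM1 KO, against 38.1, 35.7 and 56.9 in parental cells.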

How the results depend on the processing

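Of 688 alternative values, 518 kept their side of the threshold or moved by less than the rule for a change, 149 lost the call, 5 gained one, 14 moved and 2 reversed. Of the 518, 11 changed sign, all of them differences past no threshold. In cleavage protection, the 1 call in the MRM1 KO became 0 with a minimum flank median of 50, with no filter, with the 2 µM libraries and after thinning. G2815 was at -0.54 with no filter and -0.43 after thinning, neither past the threshold, and had no value in the other 2 settings. The fit with no filter is unreliable, since most of its residual variances were 0, and thinning was a single random draw. The MRM2 KO had 4 calls before truncation and 9 with edgeR, in place of 0. In RT-stop score, the 1 call of the MRM1 KO became 0 on the linear scale, where G2815 differed by -42.8, 2 at 2 µM alone and 9 with edgeR. At 500 µM alone G2815 reversed, to 2.21. The MRM2 KO went to 1 call on the linear scale, 5 at 2 µM alone, 2 at 500 µM alone and 17 with edgeR. As a share of all transcripts, coverage of the stretch differed by 0.525 points in the MRM1 KO, which reversed, and by -4.93 in the MRM3 KO, the line with the smallest share of 16S reads. For the other changes the cause was not tested.

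Without 1 replicate each, the counts of calls stayed at 1 in the MRM1 KO and 0 in the other knock-outs in both scores. G2815 ranged between -0.605 and -0.498 in score A and between -6.11 and -5.59 in log2 RT-stop score. The share of coverage ranged between -1.35 and -0.515 in the MRM1 KO, -1.78 and -0.397 in the MRM2 KO, and -1.61 and 0.652 in the MRM3 KO. The positions raised by low dNTPs numbered 88 to 100 in the MRM1 KO, 92 to 106 in the MRM2 KO, 104 to 109 in the MRM3 KO and 98 to 102 in parental cells. Same-numbered replicates did not deviate together (median r 0.0118 in score A and -0.00675 in RT-stop score). With the replicate number as a block, the counts of both scores were unchanged, and G2815 was at -0.54 (adjusted p = 0.00261) and -5.82 (adjusted p = 7.67e-05). For the stop ratios alone, the block left 0 calls in the MRM1 KO and 1 in the MRM2 KO at 500 µM, and 1 and 0 at 2 µM. The calls lost were G2815 (adjusted p = 0.233) and A2717 (0.079) at 500 µM, and G2814 (0.0817) and all 5 of the MRM2 KO at 2 µM. C2727 was lost before truncation (0.0573).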
